A study of Mus musculus with 2 samples.

Results

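The results below follow 9 genes that control or carry out apoptosis in mouse cerebral cortex, namely Casp8, Casp9, Apaf1, Bax, Bcl2, Bcl2l1, Bcl2l11, Bbc3 and Mcl1. They were taken by gene symbol from the 55450 genes counted in each library, and each symbol matched 1 gene. In scRNA-seq with barcoded droplets, every RNA molecule receives a unique molecular identifier (UMI), so that its amplified copies are counted once. The data were 1 control library and 1 library of white matter injury (WMI) from C57BL/6 cortex. The labels give ligation of the right common carotid artery with 1 h of hypoxia on postnatal day 7 for the WMI mice. They give sampling on postnatal day 14 of the ligated cortex and of the same side of control mice. The paper gives younger mice, a longer hypoxia, trypsin-dissociated cells where the labels describe nuclei, and several replicates per group. It also speaks of the control side of the cortex in its results, but of control brains or sham hemispheres elsewhere. Which account holds for these counts was not tested. With 1 library per condition there was no replicate check and no test was run. The 95% intervals given below cover counting error only, and fewer or more cells of a given state in a class and a change per cell give the same summed level.

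The control library held 10288 barcodes and 66470806 UMIs, and the WMI library 8354 barcodes and 60568639 UMIs, with 36 barcodes in common. After filters on depth and mitochondrial share and the removal of predicted doublets, 8755 control and 7571 WMI cells were kept, with median depths of 4335 and 5019 UMIs and median mitochondrial shares of 0.0616% and 0.450%. They formed 35 clusters, of which 32 were named from marker genes and are called "-like". The 9 genes and the other apoptosis genes were left out of the clustering, so that they did not shape the classes. A clear difference between the libraries beside the surgery was the sex of the cells. Xist, which is transcribed from the inactive X chromosome of females, was found in 5 control cells and 4792 WMI cells. Y-linked UMIs were found in 6515 control and 4499 WMI cells, of which 6510 and 1968 held no Xist UMI. Many WMI cells thus held both. Cells with a Y-linked UMI and no Xist UMI are used below as a second reading, and whether all of them are male was not tested. RNA free in the droplets may also have been counted, but it was not measured on its own. Slc17a7, a glutamate transporter gene of excitatory neurons, reached 62.7% (control) and 59.7% (WMI) of its level in excitatory neuron-like clusters (here without those mostly of 1 library) in cells like oligodendrocyte (OL) precursor cells (OPC-like cells), and 96.7% and 75.4% in microglia-like cells. In inhibitory neuron-like cells it reached 40.4% and 33.5%, so the share differed between classes. No class is known to lack the 9 genes, so a low level in any class may hold free RNA.

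In apoptosis, initiator caspases cut and switch on the caspases that dismantle the cell. Caspase-8, the product of Casp8, is recruited by death receptors of the cell surface, whereas caspase-9 (Casp9) is activated on the apoptosome, a wheel that APAF1 (Apaf1) forms after mitochondria release cytochrome c. Release needs BAX (Bax) or its relative BAK, which are held back by BCL-2 (Bcl2), BCL-XL (Bcl2l1) and MCL-1 (Mcl1), and the BH3-only proteins BIM (Bcl2l11) and PUMA (Bbc3) oppose these guardians. Caspase-8 also blocks necroptosis, and developing oligodendrocytes and neurons are known for large waves of programmed death.

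To show the DNA upstream of an initiator caspase gene of the myeloid classes, one of broad low levels and the BH3-only gene with the larger number of UMIs, 3 promoter windows from RefSeq (GRCm38.p6) are printed 5′ to 3′ on the strand of the gene, each with the 250 bases before the annotated start. For Casp8 (chr1:58802252-58802501, plus strand), which was highest in microglia-like and lipid-laden myeloid-like cells, and Casp9 (chr4:141793362-141793611, plus strand), which was found at low levels in all larger classes, the capitals mark CpG dinucleotides. For Bcl2l11 (chr2:128125788-128126037, plus strand), which differed between libraries in several classes, the capitals mark GTAAACA, the letters that forkhead (FOXO) factors are known to bind.
Casp8: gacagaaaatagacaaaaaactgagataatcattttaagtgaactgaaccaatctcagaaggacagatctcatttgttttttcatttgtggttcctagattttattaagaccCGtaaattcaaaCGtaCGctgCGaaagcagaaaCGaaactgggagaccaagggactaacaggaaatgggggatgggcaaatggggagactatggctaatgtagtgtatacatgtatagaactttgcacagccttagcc
Casp9: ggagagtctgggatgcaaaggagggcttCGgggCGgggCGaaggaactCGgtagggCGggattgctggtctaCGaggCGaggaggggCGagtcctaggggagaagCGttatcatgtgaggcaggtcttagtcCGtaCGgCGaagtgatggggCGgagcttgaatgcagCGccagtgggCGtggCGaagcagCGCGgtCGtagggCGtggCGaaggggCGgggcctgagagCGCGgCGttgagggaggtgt
Bcl2l11: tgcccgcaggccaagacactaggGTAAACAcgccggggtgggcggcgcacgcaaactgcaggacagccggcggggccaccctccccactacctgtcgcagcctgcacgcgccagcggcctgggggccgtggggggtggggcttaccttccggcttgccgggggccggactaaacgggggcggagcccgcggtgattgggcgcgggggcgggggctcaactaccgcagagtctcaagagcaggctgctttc
The Casp8 window held 5 CpG and 39.6% G or C, and 44.4% of all 32851 windows of this length held fewer CpG. It lies inside the longer Casp8 gene of GENCODE M21, which begins upstream of this start. The Casp9 window held 25 CpG and 66.0% G or C, more CpG than 89.3% of all windows. GTAAACA, searched on both strands, was in 2 of the 14 windows of the 9 genes (1 of Bcl2l11, 227 bases before the start, and 1 of Bbc3) and in 3.17% of all windows. GAGGAA, a core of sites for the myeloid factor PU.1, was in 1 of the 14 windows (Bcl2) and in 23.3% of all windows. None of the 3 printed windows overlapped an annotated exon, and these matches are letters only.

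Casp8 stood out in the myeloid classes. A level is the summed UMIs of a gene as a share of all UMIs of the class, in counts scaled to CPM. The Casp8 level was 102 in control microglia-like cells (95% interval 86.5 to 121) and 93.5 in WMI microglia-like cells (81.3 to 107). In excitatory neuron-like cells it was 0.688 and 1.5, so that microglia-like cells were 149-fold (95.5 to 242) and 62.4-fold (43.5 to 92.0) higher. The intervals of the myeloid and neuronal levels were far apart in both libraries. In the WMI library a class with markers of lipid-laden myeloid cells (447 WMI and 13 control cells) had a Casp8 level of 85.7 (72.7 to 100), 0.916 times that of microglia-like cells (0.739 to 1.13). In the OL lineage, which runs from OPC-like over premyelinating (pre-OL-like) to mature OL-like cells, it was 1.63 and 4.52 in OPC-like cells (3 and 11 UMIs). No Casp8 UMI was found in control pre-OL-like cells or in mature OL-like cells of either library, which allows levels of up to 3.41, 3.94 and 6.23 by a limit of 3 counts. After each cell was thinned to 1000 UMIs, 9.74% of control microglia-like cells (7.11 to 12.9) and 7.86% of WMI ones (5.97 to 10.1) held a Casp8 UMI, against 27.1% and 22.6% before thinning. The corresponding shares of excitatory neuron-like cells were 0.151% and 0.243%. The small endothelial-like class had levels of 39.2 and 48.1, from 3 UMIs in each library. Casp8 spans chr1:58795374-58847503 of GRCm38 on the plus strand.

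Microglia are the resident macrophages of the brain, and several other members were also higher in them than in neurons. All 9 genes reached 100 UMIs when both classes of the control library were summed, and 6 were at least 1.5-fold higher in microglia-like than in excitatory neuron-like cells (Casp8, Casp9, Apaf1, Bcl2l1, Bcl2l11 and Mcl1) and 0 were lower, beside 52.2% of all genes past 1.5-fold in either direction and 29.9% higher. In the WMI library 7 of 8 were higher (Bax in addition), beside 63.3% of all genes in either direction and 41.4% higher. Their median log2 ratio was 1.18 in control and 1.82 in WMI, against 0.14 and 0.38 over all genes tested. Bcl2 did not follow this pattern, with levels of 64.3 and 66.2 in microglia-like cells and 52.2 and 69.8 in excitatory neuron-like cells. Slc17a7 reached 96.7% and 75.4% in microglia-like cells, so their Bcl2 levels may hold free RNA. Neither did Bbc3 separate the classes, at 4.95 against 3.47 in control (1.43, 0.561 to 3.03) and 4.03 against 3.43 in WMI (1.18, 0.519 to 2.34). The control excitatory neuron-like class includes cluster 2, which is almost only of control cells and is described below. Cluster 2 gave 195 of the 606 Bax UMIs of that class, at a level of 76.4. With it included, the control ratio of Bax in microglia-like to excitatory neuron-like cells was 1.25 (0.846 to 1.78). The count of members without cluster 2 was not taken.

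**Figure D1:**
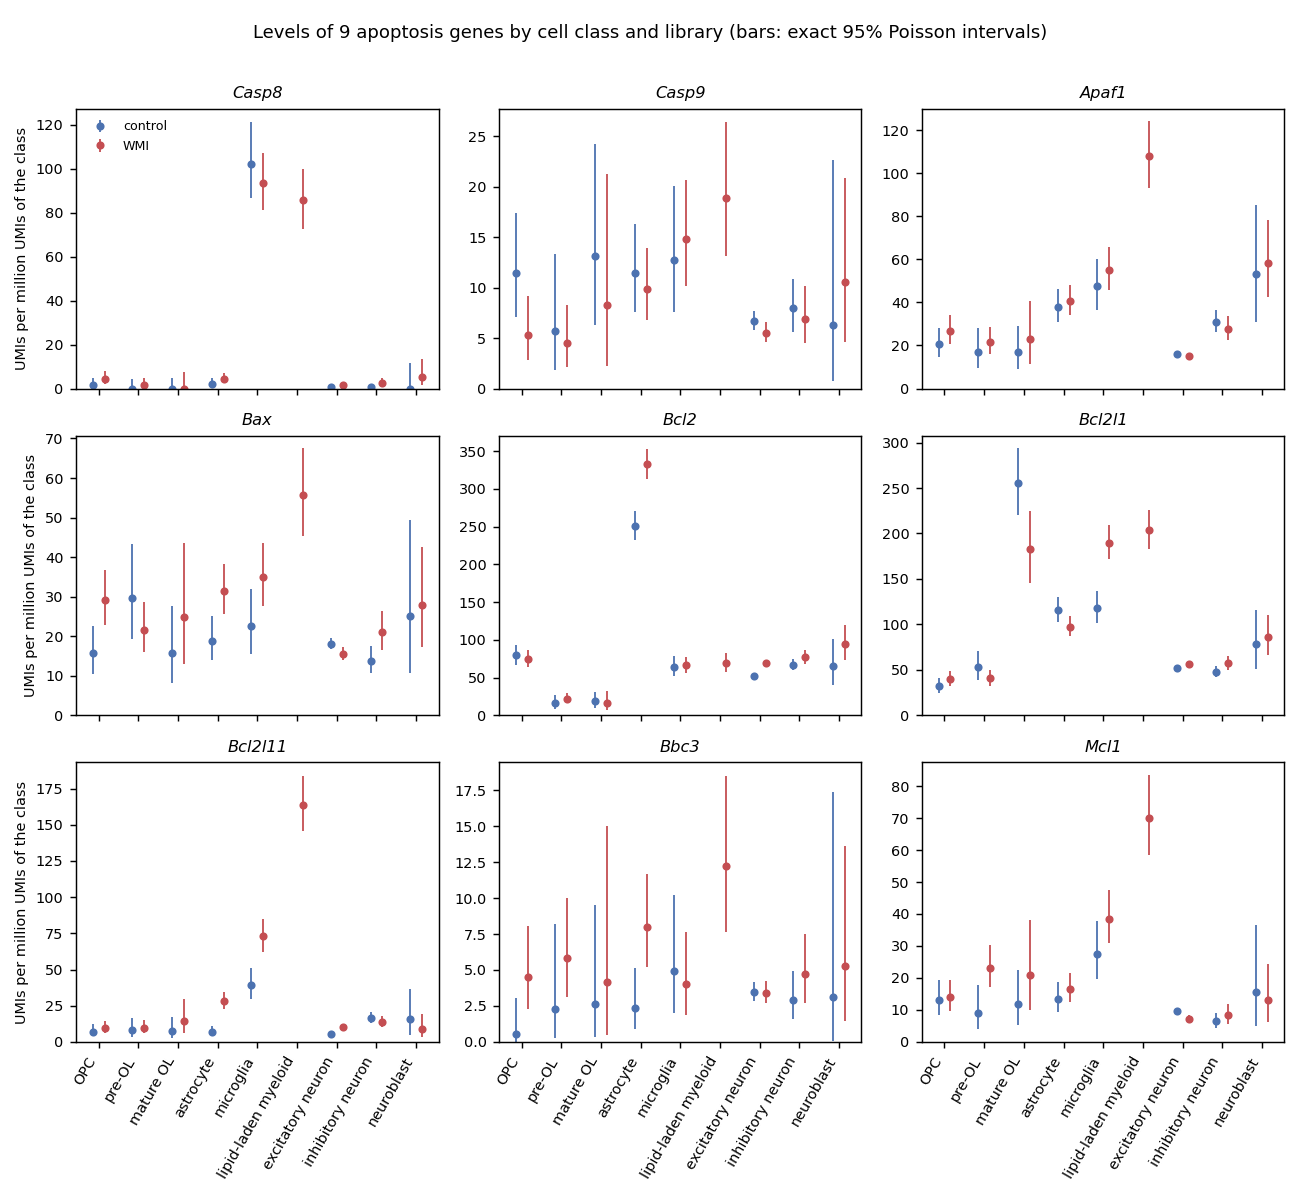
Level of each of the 9 genes, in CPM (summed UMIs of the gene scaled to the UMIs of the class), on linear axes that start at 0 and differ between genes. Points are the control and WMI libraries (1 library each), and bars are exact 95% Poisson intervals, which cover counting error only. The lipid-laden myeloid-like class is shown for the WMI library alone, because it held 13 control cells. Casp8 stood near 100 in the myeloid classes and below 6 in the others shown, Bcl2 was highest in astrocyte-like cells, and Bcl2l1 was high in mature OL-like and myeloid cells.

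Casp9 and Apaf1, the partners of the apoptosome, had different spreads over classes. The Casp9 level stayed between 4.51 (WMI pre-OL-like) and 18.9 (WMI lipid-laden myeloid-like) in the classes plotted, with wide intervals. Of 10 pairs of neighbours in the order of Casp9 levels, 0 were apart in either library, but classes farther apart in the order differed. Casp9 in microglia-like cells was 1.90-fold (1.10 to 3.07) in control and 2.67-fold (1.77 to 3.94) in WMI above excitatory neuron-like cells, and in astrocyte-like cells 1.70-fold (1.11 to 2.51) and 1.79-fold (1.17 to 2.65). Casp9 lies at chr4:141793612-141815976 (plus strand), where 2 genes overlap it on the other strand (Cela2a and Ctrc). Apaf1 (chr10:90989311-91082770, minus strand) was lowest in excitatory neuron-like cells, with levels of 16.2 in control and 15 in WMI. OPC-like, pre-OL-like and mature OL-like cells had 20.6, 17.1 and 17.1 in control and 26.7, 21.6 and 22.8 in WMI. The next class, pre-OL-like cells, was not apart in control (ratio interval 0.586 to 1.75) and was apart in WMI (1.04 to 1.95). In inhibitory neuron-like cells Apaf1 was 30.9 and 27.7, or 1.91-fold (1.58 to 2.29) and 1.84-fold (1.46 to 2.31) above excitatory neuron-like cells. It was also 38.0 and 40.7 in astrocyte-like cells, 47.4 and 55.0 in microglia-like cells and 53.2 and 58.3 in neuroblast-like cells. The order of excitatory, inhibitory and microglia-like cells was thus the same in the libraries. The highest Apaf1 level was 108 (93.3 to 124) in WMI lipid-laden myeloid-like cells.

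Bcl2, which encodes the founding guardian of mitochondria, was highest in astrocyte-like cells among the larger classes. Its level there was 251 (232 to 271) in control and 333 (313 to 353) in WMI, 4.80-fold (4.37 to 5.26) and 4.77-fold (4.41 to 5.15) above excitatory neuron-like cells. Between these classes 4 of 8 members were past 1.5-fold in control and 8 of 8 in WMI, all higher in astrocyte-like cells, beside 46.7% and 53.7% of all genes in either direction. In control, cluster 2 gave 195 of the 606 Bax, 93 of the 322 Mcl1 and 34 of the 116 Bbc3 UMIs of excitatory neuron-like cells. The count without this cluster was not taken. The small fibroblast-like class (28 and 68 cells) reached Bcl2 levels of 294 and 155, and the endothelial-like class (20 and 14 cells) reached 274 and 289. Within the OL lineage Bcl2 was highest in precursors. Its level was 79.3 (67.0 to 93.3) in control OPC-like cells and 74.4 (63.9 to 86.0) in WMI ones, but 15.9 and 22.1 in pre-OL-like cells and 18.4 and 16.6 in mature OL-like cells. The mature OL-like level was 0.232 times the OPC-like one in control (0.124 to 0.402) and 0.223 times in WMI (0.0950 to 0.449), and the pre-OL-like level was 0.201 (0.107 to 0.348) and 0.297 (0.212 to 0.409) times. The OPC-like intervals did not overlap those of the later stages in either library. The pre-OL-like levels were also below 31.4 and 34.4, the values given by the Bcl2 level of excitatory neuron-like clusters not mostly of 1 library (53.0 and 69.9) times the Slc17a7 share of this class. Bcl2 spans 176.1 kb at chr1:106538178-106714274 (minus strand).

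Bcl2l1, the gene of BCL-XL, ran the other way along the lineage. Its level was 32 (24.4 to 41.3) in control and 39.8 (32.3 to 48.6) in WMI OPC-like cells, and 53.5 and 40.6 in pre-OL-like cells. In mature OL-like cells (90 and 50 cells) it reached 255 (220 to 294) and 183 (146 to 225). The mature OL-like levels were 7.96-fold (5.92 to 10.8) and 4.58-fold (3.39 to 6.18) above the OPC-like levels. They were 4.77-fold (3.45 to 6.71) and 4.5-fold (3.32 to 6.11) above the pre-OL-like levels. Excitatory neuron-like cells had 52.1 and 56.0, so the low levels of the earlier stages may hold free RNA, and the fold sizes are uncertain to that extent. The step between pre-OL-like and mature OL-like cells was therefore seen in both libraries, while pre-OL-like cells were 1.67-fold (1.11 to 2.49) above OPC-like cells in control and 1.02-fold (0.756 to 1.37) in WMI. After thinning, 33.3% of control (23.7 to 44.1) and 14.0% of WMI mature OL-like cells (5.82 to 26.7) held a Bcl2l1 UMI, against 2.98% and 4.75% of OPC-like cells. Before thinning, which compares cells of unequal depth, the shares were 83.3% and 70%, against 15.5% and 16.6%. Bcl2l1 lies at chr2:152780668-152831728 (minus strand).

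Bcl2 and Bcl2l1 were the 2 genes of the 9 with at least 100 UMIs over OPC-like and mature OL-like cells, and both were past 1.5-fold in each library. The same held for 53.2% of all genes in control and 57.1% in WMI, so that a difference of this size was common between these stages. Of genes tested, 20.6% and 17.3% were higher and 32.6% and 39.8% were lower in mature OL-like cells. Between OPC-like and pre-OL-like cells 2 members passed the minimum in control (33.8% of all genes past 1.5-fold), with Bcl2l1 higher and Bcl2 lower, and 4 in WMI (28.1%), with Bcl2 lower. Between pre-OL-like and mature OL-like cells Bcl2l1 alone passed it in both libraries (42.8% and 49.5%), and it was higher. For the other members the intervals were wide and most did not separate the stages. Between OPC-like and pre-OL-like cells Bax was 1.88-fold (1.06 to 3.30) higher in the latter in control and 0.742-fold (0.503 to 1.09) in WMI, and Mcl1 was 0.698-fold (0.271 to 1.61) and 1.65-fold (1.05 to 2.62). For Bax, which opens the outer mitochondrial membrane (chr7:45461697-45466898, minus strand), the level was 15.8, 29.6 and 15.8 in control OPC-like, pre-OL-like and mature OL-like cells, and 29.2, 21.6 and 24.9 in WMI.

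In the WMI library the lipid-laden myeloid-like class carried the highest level of 7 of the 9 genes among the 11 named classes with at least 20 cells, where 16.3% of all genes with at least 100 UMIs were highest. For 3 of the 7 (Casp9, Bcl2l1 and Bbc3) the next class was not apart. The endothelial-like class, left out with 14 cells, had levels of 80.2 for Mcl1 and 208 for Bcl2l1, from 5 and 13 UMIs, against 70.1 and 204. In the control library the highest levels were spread over 6 classes, with 4 genes highest in microglia-like cells, where 11.2% of all genes were highest. For none of these 4 was the next class apart. Lipid-laden phagocytes are known to form where dying cells and myelin debris are cleared. Against microglia-like cells of the same library, 4 of the 7 members with at least 100 UMIs were at least 1.5-fold higher (Apaf1, Bax, Bcl2l11 and Mcl1) and 0 were lower, beside 15.2% of all genes past 1.5-fold in either direction, 9.68% higher and 5.54% lower. The median log2 ratio of the 7 was 0.67, against -0.02 over all genes tested. Bcl2l11, whose product BIM binds all guardians, showed the largest ratio of the 4. Its level was 164 (146 to 184) against 72.9 (62.2 to 85.0), or 2.25-fold (1.85 to 2.74). Apaf1 was 1.96-fold (1.56 to 2.48), Mcl1 1.82-fold (1.37 to 2.42) and Bax 1.59-fold (1.17 to 2.17) higher. Bcl2l1 and Casp8 had ratios of 1.07 (0.930 to 1.24) and 0.916. Bbc3, with 9 and 22 UMIs, had levels of 4.03 and 12.2. Slc17a7, on the scale given above, reached 70.8% in this class and 75.4% in microglia-like cells, and the median depths were 3454 and 2984 UMIs. At a resolution of 0.4, or without integration, these cells did not form a class of their own.

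**Figure D2:**
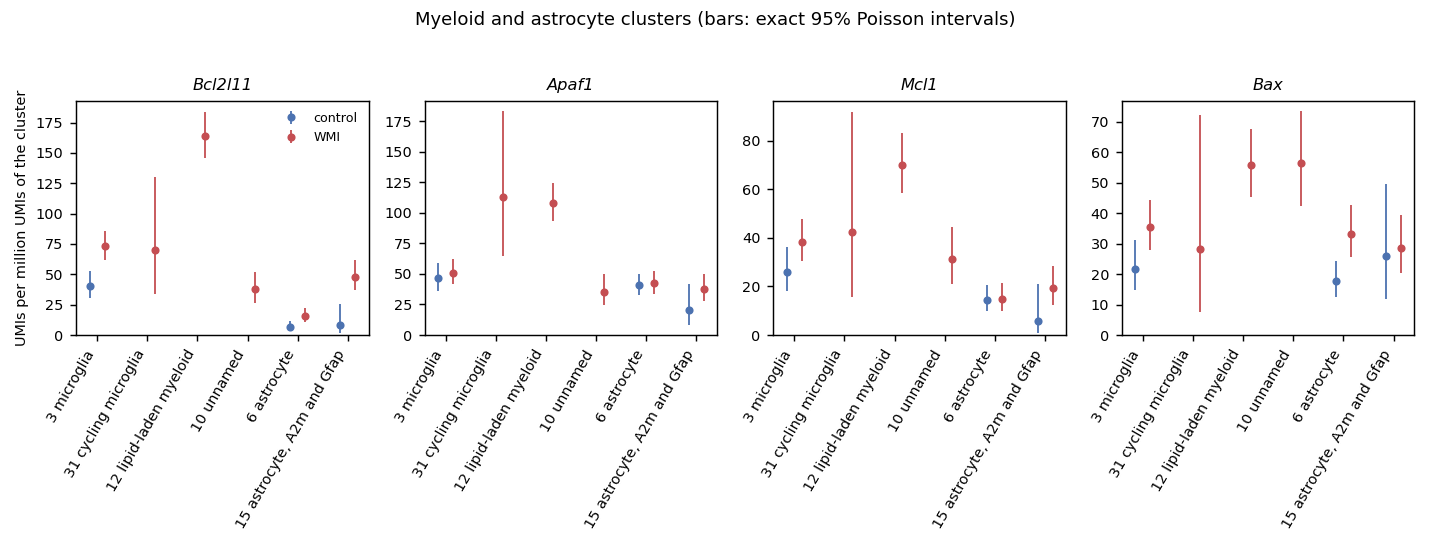
Levels of Bcl2l11, Apaf1, Mcl1 and Bax (CPM of the cluster, linear axes from 0) in myeloid and astrocyte-like clusters, by library, with exact 95% Poisson intervals. The control points of clusters 12 and 31 (13 and 9 cells) are not drawn, and cluster 10 held no control cell. The lipid-laden cluster 12 was above microglia-like cluster 3 of the WMI library for each gene, and Bcl2l11 in the astrocyte-like cluster led by A2m and Gfap was 48.0 in WMI and 8.67 in control.

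A further cluster, number 10, held 548 cells, all of the WMI library, with a median of 1683 UMIs and a Slc17a7 level 161% of that in excitatory neuron-like clusters. Its leading genes included Ftl1, Spp1 and the myeloid gene Tyrobp, and it met no name. Against microglia-like cells of that library, 1 of 7 members was past 1.5-fold higher (Bax, 56.4 against 34.9) and 4 were lower (Casp8, Apaf1, Bcl2l1 and Bcl2l11), beside 43.3% of all genes in either direction, 19.7% higher and 23.6% lower. Casp8 was 24.0 in it against 93.5. In the control library cluster 2 stood apart in a like way. It is an excitatory neuron-like cluster of 1175 control and 5 WMI cells. In control its median depth was 1756 UMIs and its Slc17a7 level was 653 CPM, against 221 CPM in excitatory neuron-like clusters without it. Its Bax level was 76.4 (66.0 to 87.9), 5.81-fold (4.60 to 7.38) that of upper-layer cluster 1 (13.1). Apaf1 (1.77-fold) and Mcl1 (36.4 in cluster 2) were also past 1.5-fold higher, 3 of 5 members tested. Of all genes 61.3% were past it in either direction, 49.7% higher and 11.6% lower. The median log2 ratio was 0.83 for the 5 members and 0.58 over all genes tested, so levels were raised in this cluster in general. A cluster of 1 library may be a property of that library, and cluster 2 is left out of a second reading of the neurons below.

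Neuron subtypes differed in Bcl2, the member with the most UMIs (7999 over all kept cells). Over the 19 neuron clusters with at least 50 control cells, the Bcl2 level ranged from 21.2 (10.9 to 37.0) in excitatory cluster 27 to 97.3 (78.0 to 120) in near-projecting cluster 25, with a median of 51.5. Over the 17 such WMI clusters it ranged from 29.3 to 138 with the same clusters at the ends, and with a median of 64.0. Near-projecting neurons are deep-layer cells with short axons. Cluster 25 was 3.86-fold (2.66 to 5.68) in control and 2.77-fold (2.08 to 3.71) in WMI above excitatory cluster 14. Cluster 14 shared the leading genes Tshz2, Npsr1 and Abi3bp with it, but its Bcl2 levels of 25.2 and 49.8 were below the medians. In layer 6 corticothalamic cluster 8 the level was 67.2 in control and 103 in WMI, against 42.7 and 53.9 in upper-layer cluster 4, or 1.57-fold (1.33 to 1.86) and 1.91-fold (1.54 to 2.38). Cluster 4 met the upper-layer name, but its leading genes include Rorb, a marker listed for layer 4. Lhx6 interneurons (cluster 16) had 74.8 and 108 and Sst interneurons (cluster 22) 45.6 and 64.0, or 1.64-fold (1.21 to 2.26) and 1.69-fold (1.23 to 2.37). These differences had the same direction in both libraries.

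Of the members with at least 100 UMIs in these comparisons, 3 of 4 (control) and 2 of 2 (WMI) were past 1.5-fold between clusters 8 and 4, beside 19.7% and 21.7% of all genes. It was 1 of 2 in both libraries between clusters 25 and 14 (26.7% and 28.9%), and 1 of 3 and 1 of 2 between clusters 16 and 22 (19.0% and 19.3%). Between inhibitory and excitatory neuron-like cells 2 of 8 members passed in control (Apaf1 and Bcl2l11, 27.1% of all genes) and 1 of 7 in WMI (Apaf1, 25.3%). Bcl2l1 ranged from 36.8 (28.7 to 46.5) to 66.8 (49.2 to 88.5) over the control clusters and from 45.2 to 77.5 over the WMI clusters, and cluster 8 was 1.52-fold (1.29 to 1.80) and 1.62-fold (1.26 to 2.06) above cluster 4. Bcl2l11 was 21.8 and 24.6 in Lhx6 interneurons, and 0 and 1 UMI were found in near-projecting cluster 25 (levels of 0 and 1.15, where 3 counts allow 3.36 in control).

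**Figure D3:**
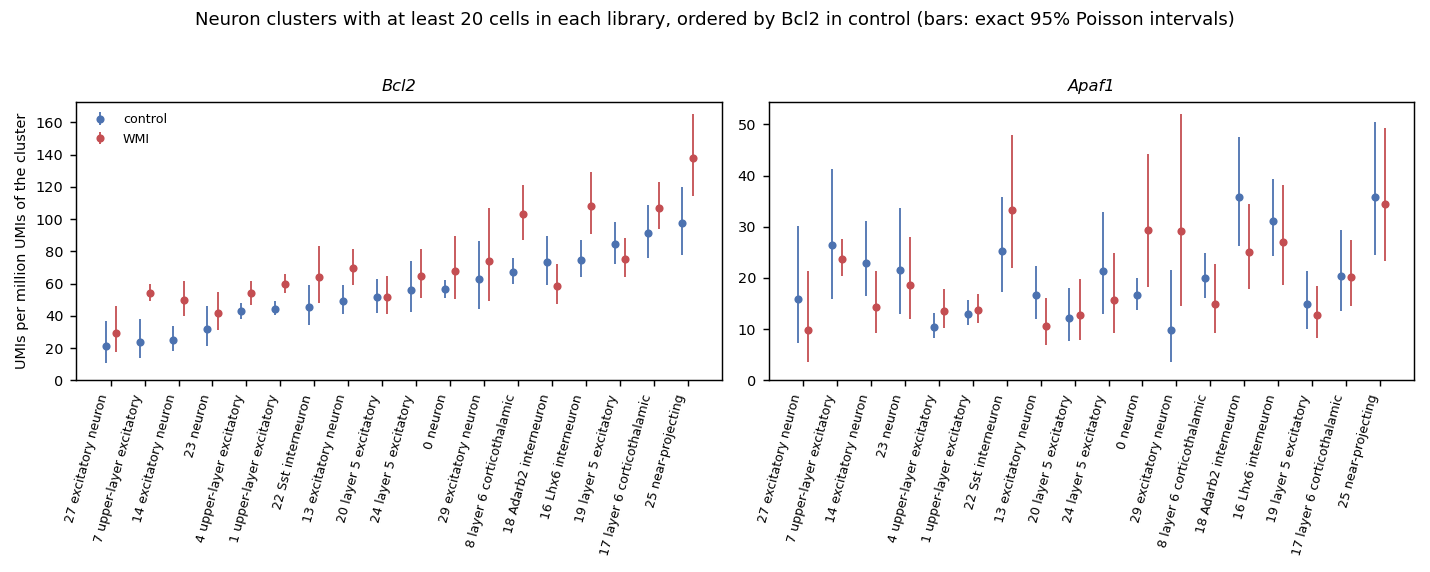
Levels of Bcl2 and Apaf1 (CPM of the cluster, linear axes from 0) in the 18 neuron clusters with at least 20 cells in each library, ordered by Bcl2 in the control library, with exact 95% Poisson intervals. Bcl2 ran from 21.2 to 97.3 in control and from 29.3 to 138 in WMI, and near-projecting cluster 25 was the highest in both.

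The libraries were then compared within classes. Neuron-like cells named neither excitatory nor inhibitory (2609 control and 1066 WMI cells) were not compared. They include cluster 0 (2331 and 220 cells) and upper-layer cluster 7 (62 and 616 cells). In OL-lineage cells (574 control and 971 WMI cells), 5 members had at least 100 UMIs. Mcl1 was at least 1.5-fold higher and Bcl2l1 at least 1.5-fold lower in WMI, while 10.9% of all genes passed this size. The median log2 ratio of the 5 was 0.35, against 0.04 over all genes tested. Mcl1, a short-lived guardian (chr3:95658788-95663176, plus strand), was 11.8 in control and 18.5 in WMI, a ratio of 1.57 (1.08 to 2.32). By stage it was 13 and 14.0 in OPC-like cells, 9.10 and 23.0 in pre-OL-like cells and 11.8 and 20.8 in mature OL-like cells. The pre-OL-like ratio was 2.53 (1.19 to 6.16, from 8 and 51 UMIs), under the minimum of 100.

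Bcl2l1 in OL-lineage cells was 86.2 in control and 53.6 in WMI, a ratio of 0.621 (0.526 to 0.734). The libraries held different mixes of stages, with 90 of 574 control and 50 of 971 WMI cells mature OL-like. Within stages the ratio was 1.24 (0.891 to 1.75) in OPC-like, 0.759 (0.528 to 1.10) in pre-OL-like and 0.716 (0.550 to 0.926) in mature OL-like cells, none of which reached 1.5-fold. With equal shares of the clusters of the lineage, the log2 ratio went from -0.69 to -0.14. Of these clusters 2 were OPC-like, 1 of them (cluster 30, 23 and 31 cells) with cycling markers, so the stages did not weigh equally. With predicted doublets kept the log2 ratio was -0.53. Equal shares gave 0.46 for Mcl1 (0.65 as measured) and 0.78 for Apaf1 (0.35). Bcl2 (50 and 46.4), Apaf1 (19.0 and 24.2) and Bax (19.2 and 25.5) stayed within 1.5-fold in the lineage. Bbc3, with 5 and 26 UMIs, had levels of 1.44 and 5.06, a ratio of 3.53 (1.33 to 11.8), and Casp9, with 36 and 27 UMIs, had 10.3 and 5.26, a ratio of 0.508 (0.297 to 0.861). Both were under the minimum of 100 UMIs. Among Y-positive cells without Xist the log2 ratio was 0.49 for Mcl1 and -0.51 for Bcl2l1, from 479 control and 259 WMI cells, where 3 members kept 100 UMIs and 0 were past 1.5-fold.

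In microglia-like cells (431 control and 700 WMI cells), 3 of 7 members were past 1.5-fold and all 3 were higher in WMI, beside 16.3% of all genes in either direction and 11.7% higher. The median log2 ratio of the 7 was 0.48, against 0.10 over all genes tested. Bcl2l1 was 118 (101 to 137) and 190 (172 to 209), a ratio of 1.61 (1.34 to 1.93), and after thinning 8.35% and 17.1% of the cells held its UMI. Bcl2l11 (chr2:128126038-128162547, plus strand) was 39.6 and 72.9, a ratio of 1.84 (1.35 to 2.54). Bax was 22.6 and 34.9, a ratio of 1.54 (1.01 to 2.41), from 32 and 78 UMIs. A guardian and 2 genes that oppose it were thus higher together, and the interval of Bax came close to 1. Among Y-positive cells without Xist (281 and 152 cells) the log2 ratios were 0.51, 0.70 and 0.89, against 0.68, 0.88 and 0.63 over all cells, and 0 members both passed 1.5-fold and kept 100 UMIs. Casp8 (0.912, 0.735 to 1.14), Apaf1 (1.16), Bcl2 (1.03) and Mcl1 (1.40) stayed within 1.5-fold.

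In astrocyte-like cells (499 and 639 cells), Bcl2l11 was higher in WMI. With 18 control UMIs it reached the minimum of 100 through the WMI library, so its place among the members tested depended on its higher side. Its level was 7.06 (4.18 to 11.2, 18 UMIs) in control and 28.4 (22.9 to 34.8, 92 UMIs) in WMI, a ratio of 4.02 (2.41 to 7.08). Bax was 18.8 and 31.4, a ratio of 1.67 (1.17 to 2.41). They were 2 of 5 members tested, beside 17.3% of all genes past 1.5-fold in either direction, and the median log2 ratio of the 5 was 0.41 against 0.10. Bbc3, with 6 and 26 UMIs, was 2.35 and 8.01 (3.41, 1.37 to 10.1), under the minimum. The class holds cluster 6 and cluster 15, whose leading genes include A2m, Gfap, Myoc and Thbs4. Cluster 15 made up 79 of 499 control and 280 of 639 WMI cells, and whether its cells were reactive was not tested. Bcl2l11 was higher in WMI in both, 6.81 and 15.4 in cluster 6 (2.26, 1.18 to 4.52) and 8.67 and 48.0 in cluster 15 (5.53, 1.81 to 27.6, from 3 and 62 UMIs). Bcl2 differed by cluster, with 251 and 393 in cluster 6 (1.57, 1.40 to 1.75) and 248 and 242 in cluster 15 (a ratio with an interval of 0.765 to 1.25). Within the WMI library Bcl2 in cluster 15 was 0.616 times that in cluster 6 (0.538 to 0.704), 1 of 4 members past 1.5-fold beside 15.6% of all genes, and in control the ratio was 0.990, with 0 of 2 past it beside 21.1% (8.98% higher and 12.1% lower). Among Y-positive cells without Xist (414 and 155 cells) the log2 ratio of Bcl2l11 was 2.25, against 2.01 over all cells, and that of Bax was 0.69, against 0.74. With equal shares of the clusters Bax was at 0.50.

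In excitatory neuron-like cells (3980 and 2055 cells), 1 of 8 members was past 1.5-fold, beside 12.1% of all genes, and the median log2 ratio of the 8 was -0.06 against -0.08. It was Bcl2l11, with 5.27 (4.52 to 6.1) in control and 10.3 (9.06 to 11.7) in WMI, a ratio of 1.96 (1.61 to 2.39). Without cluster 2 the ratio was 2.12 (1.72 to 2.61) and 9.56% of all genes passed, and among Y-positive cells the log2 ratio was 1.06 against 0.97. Bax and Mcl1 moved with cluster 2. Bax was 18.1 and 15.5 with it and 13.3 and 15.5 without it, and Mcl1 was 9.63 and 7.28 with it and 7.42 and 7.29 without it. Bcl2 was 52.2 and 69.8, a ratio of 1.34 (1.25 to 1.43). Bbc3, whose product PUMA is a target of p53 and which had the fewest UMIs of the 9 genes (448 over all kept cells), was 3.47 and 3.43 in these neurons, and its log2 ratio of WMI to control was -0.64 among Y-positive cells. Both readings of Bbc3 include cluster 2. Over all cells of the class, that cluster gave 34 of the 116 control Bbc3 UMIs, at a level of 13.3. In inhibitory neuron-like cells (470 and 382 cells), Bax was 13.8 and 21, a ratio of 1.53 (1.08 to 2.15), 1 of 5 members tested beside 8.41% of all genes. Its log2 ratio of 0.61 lay just past 1.5-fold and was 0.58 with predicted doublets kept, 0.54 as a mean of per-cell values and 0.98 among Y-positive cells. Bcl2l11 was 16.7 and 13.6 there, a ratio of 0.812 (0.557 to 1.17).

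**Figure D4:**
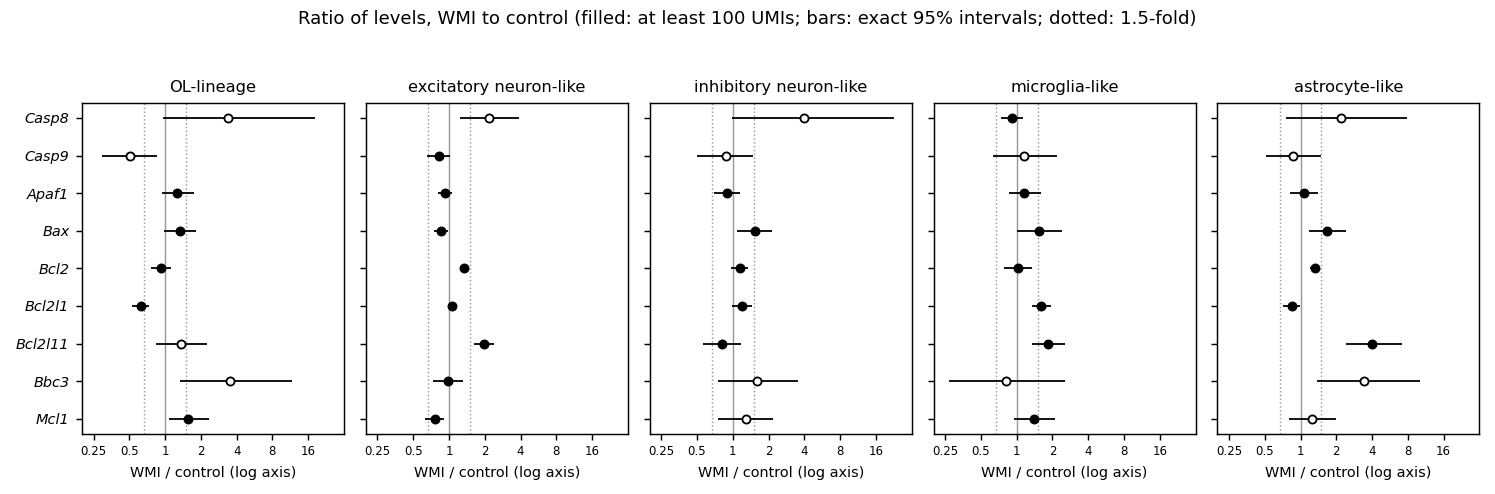
Ratio of levels, WMI to control, for the 9 genes in 5 classes, on a log axis. Filled points have at least 100 UMIs over both libraries, open points fewer, bars are exact 95% intervals that cover counting error only, and dotted lines mark 1.5-fold in either direction. Bcl2l11 was at 4.02 in astrocyte-like, 1.96 in excitatory neuron-like and 1.84 in microglia-like cells, and Bcl2l1 was at 0.621 in OL-lineage and 1.61 in microglia-like cells.

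The rest of the pathway was followed with a list of 55 other apoptosis genes, all of which were counted. In OL-lineage cells 21 of them had at least 100 UMIs, 2 were at least 1.5-fold higher in WMI and 0 were lower, beside 6.36% of all genes higher and 4.59% lower, with a median log2 ratio of 0.01. Cflar, an inhibitor of caspase-8 activation, was among those higher, with levels of 11.8 and 20.3 and a ratio of 1.72 (1.19 to 2.53). Among genes within 1.5-fold Xiap, a caspase inhibitor, had a ratio of 1.23, and the lowest ratios were those of Birc2 (0.710), Vdac1 (0.716), Trp53 (0.763) and Htra2 (0.763). Within stages Birc2 was not lower in OPC-like cells, with levels of 26.6 and 33.3 (1.25, 0.866 to 1.82), and its levels were 137 and 129 in mature OL-like cells. Vdac1 was lower in OPC-like cells, with levels of 41.3 and 26.7 (0.647, 0.457 to 0.913). It was the 1 of 11 listed genes past 1.5-fold in that stage, beside 7.48% of all genes in either direction and 2.65% lower. In pre-OL-like cells 0 of 8 listed genes passed, beside 11.3% of all genes. Cflar was also past 1.5-fold in excitatory neuron-like (5.45 and 9.51, a ratio of 1.75, 1.43 to 2.14) and astrocyte-like cells (28.6 and 54.2, 1.89, 1.43 to 2.52). In microglia-like cells its levels were far higher, 196 and 232, with a ratio of 1.18 (1.02 to 1.37). The WMI library also held more lipid-laden myeloid-like cells (447 against 13). How much free RNA of myeloid cells lay in the Cflar levels of the other classes was not tested.

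In excitatory neuron-like cells 1 of 36 listed genes was higher (Cflar) and 2 were lower, Cycs, the gene of cytochrome c (0.474), and Htra2, a mitochondrial protease (0.533), beside 3.39% of all genes higher and 8.76% lower. Without cluster 2 the ratios were 0.645 (0.522 to 0.794) for Cycs and 0.625 (0.560 to 0.697) for Htra2, and 3 genes were higher, Cflar (2.03), the BH3-only gene Hrk (1.62) and Cdkn1a (1.55), beside 4.99% of all genes higher and 4.57% lower. In inhibitory neuron-like cells 0 of 16 passed, beside 8.41% of all genes in either direction. In microglia-like cells 2 of 15 were higher, the death receptor gene Tnfrsf21 (2.00, 1.58 to 2.54) and the inhibitor gene Birc3 (1.61, 1.05 to 2.53), and Vdac1, a channel of the outer mitochondrial membrane, was lower (0.641), beside 11.7% of all genes higher and 4.58% lower. In astrocyte-like cells 2 of 17 were higher (Cflar and Tnfrsf21, 1.79) and 2 lower (Vdac1, 0.541, and Foxo3, a forkhead factor gene, 0.545), beside 17.3% of all genes in either direction. Like Casp8, Cflar was higher in microglia-like than in excitatory neuron-like cells, 36.1-fold (29.8 to 43.7) in control and 24.4-fold (20.8 to 28.7) in WMI. In this comparison 16 of 34 and 23 of 32 listed genes were higher, beside 29.9% and 41.4% of all genes. The 2 genes differed in WMI astrocyte-like cells, where Cflar was 54.2 against 232 in microglia-like cells, and Casp8 was 4.32 against 93.5. Lipid-laden myeloid-like cells were higher than microglia-like cells in 5 of 22, beside 9.68% of all genes, with Trp53inp1 (3.57), the p53 target Cdkn1a (2.56) and Bnip3 (2.27) in front. From OPC-like to mature OL-like cells 3 of 8 were higher in each library, beside 20.6% and 17.3% of all genes, with Birc2 in front at 5.14 in control and 3.87 in WMI.

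Over the 22 points given by the classes of each library, the genes with the most similar pattern were found among 7024 abundant genes by Pearson's r on log2 levels. They are descriptions over points that share libraries and depth. For Casp8 they were Lyn (0.963), Cebpg (0.943) and Slco2b1 (0.939), for Bcl2 Sparcl1 (0.916), Trak1 (0.887) and Cox10 (0.886), and for Bcl2l1 Rab3gap1 (0.876), Mtus1 (0.862) and Tpcn1 (0.858). Bcl2l11 was closest to Ncoa3 (0.901), Capzb (0.889) and Nsd3 (0.878), and Apaf1 to Klhl24 (0.923), Mapkapk2 (0.901) and Kansl1 (0.869). Bax was closest to Ctsa (0.857), Hif1a (0.852) and Vcpip1 (0.846), and Mcl1 to Trappc8 (0.928), Frs2 (0.924) and Mia2 (0.920). The sparse genes had Tmf1 (0.927), Scyl3 (0.912) and Rmnd1 (0.896) for Casp9, and Prrc2a (0.843), Atf1 (0.815) and Mt1 (0.810) for Bbc3 (chr7:16308393-16318205, plus strand).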

How the data were processed

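The authors deposited 1 table of UMI counts per gene and barcode for each library, made with Cell Ranger 6.1.1. The labels name genome build mm9 and Seurat. All 55450 gene identifiers matched GENCODE M21 (GRCm38), whose coordinates are used. How strands were counted is not given in the sources used here.

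Cells with at least 1000 UMIs, at least 500 genes and at most 10% mitochondrial UMIs were kept. Predicted doublets were removed with simulated doublets (0.8% expected per 1000 barcodes), 785 of the control and 542 of the WMI library. Libraries were integrated and clustered in Seurat 5.3.0 (R 4.3.3) with 2000 variable genes, 30 dimensions and a resolution of 0.8. Clusters were named by counts of marker genes from 30 lists, with thresholds chosen after the clusters were seen. Levels are summed UMIs scaled to CPM, with exact Poisson 95% intervals, and ratios have exact conditional binomial intervals. Shares of cells were taken after thinning to 1000 UMIs with Clopper-Pearson intervals, and a level of 0 was given the limit of 3 counts. A ratio was counted where it reached 1.5-fold with at least 100 UMIs over both sides. Similar genes had at least 2000 UMIs and used log2(CPM + 1) over classes of at least 20 cells. The computations used Python 3.11.15 with scikit-learn 1.9.0, scipy 1.17.1, pandas 2.3.3, matplotlib 3.10.9 and numpy 2.4.6, and were tested on simulated data. The 9 genes were all named, other pathway genes by a fixed rule on size. Members and lists were chosen with earlier results of these data known. 14 alternatives were planned. 1 result of the pathway list is not reported here.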

Additional observations from a re-analysis of the deposited data

Results flagged for a closer look

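Bcl2l1 differed between libraries in opposite directions in 2 classes. Its log2 ratio of WMI to control was 0.68 in microglia-like cells (levels of 118 and 190 CPM) and -0.69 in OL-lineage cells (86.2 and 53.6). The difference between the classes was not tested, since each condition had 1 library. In OL-lineage cells the stages were present in different shares. With equal shares of clusters, 2 of them OPC-like, the log2 ratio was -0.14.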

How the results depend on the processing

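No paired analysis was possible because each condition had 1 library, both given replicate number 1, and for the same reason no replicate could be left out. With cells thinned to 1000 UMIs, the number of the 9 genes past 1.5-fold between libraries was 1 in OL-lineage (2 in the report), 0 in inhibitory neuron-like (1), 1 in microglia-like (3) and 0 in astrocyte-like cells (2), and between OPC-like and mature OL-like cells 0 in each library (2). Among cells with a Y-linked UMI and no Xist UMI it was 0 in OL-lineage, 3 in excitatory neuron-like (1), 0 in inhibitory neuron-like, 0 in microglia-like and 1 in astrocyte-like cells, and 0 between the WMI stages. Both settings left fewer genes with 100 UMIs. With no minimum of UMIs it was 5 in OL-lineage, 2 in excitatory neuron-like, 3 in inhibitory neuron-like and 4 in astrocyte-like cells, and 4 (control) and 5 (WMI) between stages. A minimum of 50 UMIs gave 2 in excitatory neuron-like cells. With equal shares of clusters it was 1 in OL-lineage and 1 in astrocyte-like cells. The OL-lineage gene was then Apaf1, and neither Mcl1 nor Bcl2l1 reached 1.5-fold. The mean of per-cell values gave 4 in excitatory and 0 in inhibitory neuron-like cells. With predicted doublets kept it was 0 in inhibitory neuron-like and 5 in microglia-like cells, and it was 5 in the latter at a resolution of 0.4 and in libraries merged without integration. Of the 55 pathway genes in OL-lineage cells, 2 in the report, 4 were past it with doublets kept, 0 after thinning, 0 among Y-linked cells and 17 with no minimum. The causes were not tested. For single genes 501 values moved by less than their interval and 32 by more, and none of the ratios past 1.5-fold changed direction. Depth limited Casp8 outside myeloid cells, Casp9 and Bbc3 most.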
